A study of Mus musculus with 3 samples.

Results

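Among the genes that interferon switches on against viruses, Rsad2, Ifit1, Ifit3 and Usp18 had lower signals in CT26.WT cells exposed to S100a8 than in control cells, between 1.95-fold and 2.40-fold. With S100a9 the same 4 genes lay between the S100a8 and control arrays. Ifit2 and the brighter probe set of Cmpk2 differed from control by at most 1.10-fold under either protein. The effector genes followed here are 10 in number: Ifit1, Ifit2, Ifit3, Isg15, Usp18, Rsad2, Cmpk2, Mx1, Mx2 and Bst2. They were taken by name, from a list drawn up with earlier results of these data known, as every probe set that the platform annotation gives to exactly one of these symbols. This found 12 probe sets for 9 of the 10 genes, out of 18193 named genes on the array. Isg15 had no probe set of its own symbol alone and so has no gene value here.

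CT26.WT is a mouse colon carcinoma line of BALB/c origin. The study exposed it to recombinant mouse S100a8 or S100a9, calcium-binding proteins of myeloid cells, and compared each with a control culture. All 3 cultures were CT26.WT cells held in serum-free medium for 12 h. The S100a8 group then received 4 µg/ml of S100a8 for 24 h and the S100a9 group 4 µg/ml of S100a9 for 24 h. The control group received no S100 protein; its title names BSA and its description normal saline, and no exposure time is recorded for it. Each group was 1 culture on 1 Affymetrix Mouse Genome 430 2.0 array. With 1 array per group no test was possible, so each fold or log2 ratio below compares single arrays without a replicate check.

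Type I interferons bind a receptor of Ifnar1 and Ifnar2 chains and act through the kinases Jak1 and Tyk2. A transcription factor complex named ISGF3, which contains Stat2 and Irf9, then binds interferon-stimulated response elements in the promoters of target genes. The products block viruses at different steps. IFIT proteins bind viral RNA or hold back its translation, Isg15 is a ubiquitin-like modifier, and Usp18 removes it and also damps receptor signalling. Rsad2 (viperin) makes an altered nucleotide that stops viral polymerases, and Cmpk2 is a mitochondrial nucleotide kinase encoded beside it. Mx proteins are dynamin-like GTPases, and Bst2 (tetherin) holds budding virions at the cell surface. Tumour cells can express such genes at a basal level without infection.

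Signals are the deposited MAS5 intensities, on a linear scale. The floor was the median of all signals, 76.15; lower values were set to it before log2 was taken. The array medians were 78.74 (S100a8), 73.81 (S100a9) and 76.26 (control). Where a gene had several probe sets, the one with the highest mean log2 signal stood for it, and 11701 genes with a mean above the floor were compared. Of the members, 8 passed, each above the floor on all 3 arrays, and Mx1 did not. Over the dimmest 2926 compared genes, which include Ifit3 and Mx2, the S100a8 array stood at a median log2 ratio of 0.12 to control, against −0.02 over the 2925 genes of the brightness class that holds Ifit1, Ifit2 and Usp18. The part of this offset in the results was not tested; the gene values and counts of the members and the counts of the pathway lists were recomputed after centring by brightness, the other values were not. The poly-A control probe sets of the array had median log2 ratios to control of 0.12 (S100a8) and 0.28 (S100a9). The ratio of 3′ to 5′ probe set signals of Actb, a sign of RNA quality, was 1.65 (S100a8), 1.56 (S100a9) and 1.44 (control), highest on the array where Ifit1, Ifit3, Usp18, Rsad2 and Bst2 were lowest and lowest where they were highest, and that of Gapdh was 1.01, 1.03 and 0.961. Their part in the members' results was not tested. Brightness differs between probe sets for reasons other than RNA amount, so ratios are taken only within a probe set. Cell type marker signals are also summed over genes below, and such sums mostly follow their brightest probe sets.

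**Figure D1:**
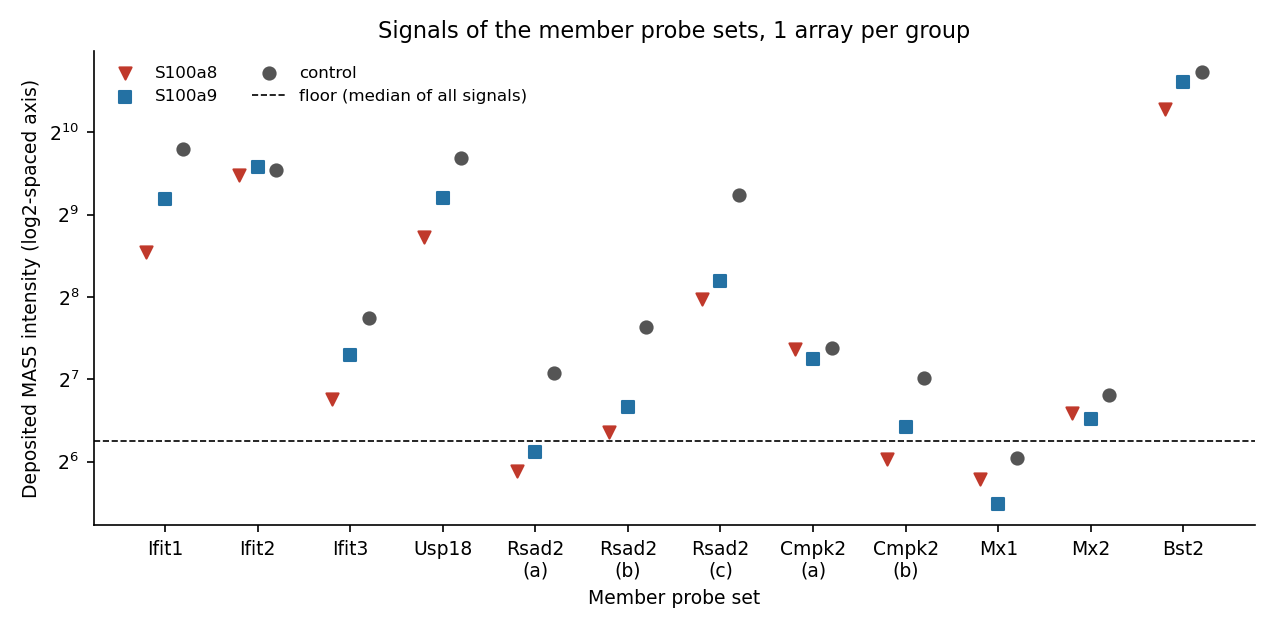
Deposited intensity (log2-spaced axis) of the 12 member probe sets on the S100a8, S100a9 and control arrays. Letters mark the probe sets of Rsad2 from the dimmest (a) to the brightest (c), and of Cmpk2 the brighter (a) and the dimmer (b). Each point is 1 array and the dashed line is the floor of 76.15. The control point is the highest for 11 of the 12 probe sets, the exception being Ifit2, and 8 of the 12 have the order S100a8, S100a9, control.

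The IFIT family split. Ifit1, which binds viral RNA lacking a methylated cap, read 375 in S100a8-treated cells, 586 in S100a9-treated cells and 892 in control cells. Ifit3, an adaptor that stabilises Ifit1 on RNA in human cells, had 109, 157 and 214. Ifit2, which restricts several RNA viruses in mice, had 715, 765 and 746. Ifit1 and Ifit3 were thus lowest with S100a8 and highest in the control, whereas the 3 Ifit2 signals lay close together. Against control, Ifit1 was 2.38-fold lower with S100a8 and 1.52-fold lower with S100a9. Ifit3 was 1.96-fold and 1.36-fold lower. The S100a8 value of Ifit3 rests on dim signals: with the floor raised to the 65th percentile of all signals, its log2 ratio was −0.47 in place of −0.97. For Ifit2 the log2 ratios were −0.06 and 0.04.

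The IFIT genes lie on chromosome 19, where Ifit2 is followed by Ifit3, and all 3 have promoter windows in the RefSeq table (build GRCm38.p6; 250 bases before to 50 after an annotated start). The windows were searched on both strands for GAAANNGAAA, the core of the interferon-stimulated response element, which reads TTTCNNTTTC on the other strand; overlapping matches were counted. Of 32851 windows of all genes, 3.44% held at least 1 match and 0.225% at least 2. The windows of Ifit1 (chr19:34640639-34640938, plus strand) and Ifit3 (chr19:34583279-34583578, plus strand) are shown because both held 2 matches, marked in capitals.

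Ifit1: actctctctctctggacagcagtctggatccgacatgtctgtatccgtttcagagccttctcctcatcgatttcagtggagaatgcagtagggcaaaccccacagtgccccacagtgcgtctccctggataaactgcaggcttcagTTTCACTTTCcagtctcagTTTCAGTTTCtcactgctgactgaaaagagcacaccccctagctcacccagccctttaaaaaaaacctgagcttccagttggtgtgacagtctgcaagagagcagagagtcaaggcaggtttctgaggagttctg

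Ifit3: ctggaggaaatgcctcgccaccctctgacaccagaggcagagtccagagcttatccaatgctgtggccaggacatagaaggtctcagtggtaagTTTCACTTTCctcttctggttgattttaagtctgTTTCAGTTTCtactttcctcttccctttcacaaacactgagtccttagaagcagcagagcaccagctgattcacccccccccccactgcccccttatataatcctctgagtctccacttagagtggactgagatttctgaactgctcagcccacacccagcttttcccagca

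In Ifit1 the matches began at −104 and −85 from the start, and in Ifit3 at −156 and −122, with the same letters in each gene, TTTCACTTTC and then TTTCAGTTTC. Both windows of Ifit2 held 0 matches. A match describes letters in a window and is not a measured binding site.

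**Figure D2:**
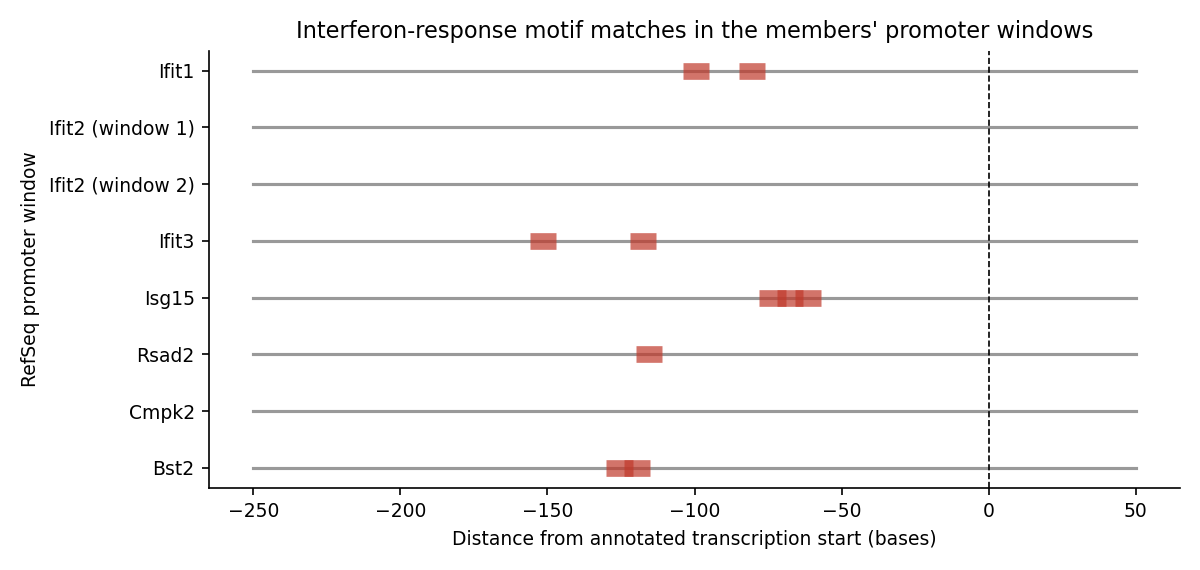
Position of GAAANNGAAA matches on either strand (red bars) in the 8 RefSeq promoter windows of 7 member genes, by distance in bases from the annotated start (dashed line). Matches lie between −156 and −57 in Ifit1, Ifit3, Isg15, Rsad2 and Bst2, and the windows of Ifit2 and Cmpk2 have none.

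Rsad2 had the lowest ratio of the members under both proteins, and its 3 probe sets gave the same order of arrays. The brightest read 251 in S100a8-treated cells, 292 in S100a9-treated cells and 604 in control cells. The next had 82.3, 101 and 199. The dimmest had 59.0, 69.7 and 135, with both protein-treated arrays below the floor. On each probe set the S100a8 and S100a9 signals lay near each other and well under the control signal. By the brightest probe set, Rsad2 was 2.40-fold lower with S100a8 and 2.07-fold lower with S100a9. The next gave 2.41-fold and 1.96-fold, and the dimmest at least 1.77-fold for each protein. Among the 11701 compared genes, Rsad2 was the 16th lowest with S100a8 and the 13th lowest with S100a9.

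Cmpk2, the next protein-coding gene to Rsad2 on chromosome 12, gave a different answer with each of its 2 probe sets. The brighter read 166 in S100a8-treated cells, 152 in S100a9-treated cells and 167 in control cells. The dimmer had 65.6, 85.6 and 129. The brighter set thus showed little difference, while the dimmer set had the array order seen for Rsad2. Its signal was at least 1.69-fold lower with S100a8, where it lay below the floor, and 1.51-fold lower with S100a9. The annotation gives both probe sets the same accession, and which of them follows the Cmpk2 transcript was not tested. The gene value, from the brighter set, had a log2 ratio of −0.01 with S100a8, which became 0.03 with median centring and 0.01 with quantile normalization. With S100a9 it was −0.14. The mean of both sets gave −0.39 and −0.37.

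The promoter windows of the neighbours Rsad2 (chr12:26456403-26456702, minus strand) and Cmpk2 (chr12:26468965-26469264, plus strand) are shown because these adjacent genes, read from opposite strands, differed in their gene values. Capitals mark matches of the same motif.

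Rsad2: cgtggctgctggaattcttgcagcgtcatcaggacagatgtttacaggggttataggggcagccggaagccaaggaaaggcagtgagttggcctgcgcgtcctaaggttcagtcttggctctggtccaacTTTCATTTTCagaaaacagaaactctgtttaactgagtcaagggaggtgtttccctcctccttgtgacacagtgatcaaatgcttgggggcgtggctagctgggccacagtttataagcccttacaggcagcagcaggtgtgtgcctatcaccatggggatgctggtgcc

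Cmpk2: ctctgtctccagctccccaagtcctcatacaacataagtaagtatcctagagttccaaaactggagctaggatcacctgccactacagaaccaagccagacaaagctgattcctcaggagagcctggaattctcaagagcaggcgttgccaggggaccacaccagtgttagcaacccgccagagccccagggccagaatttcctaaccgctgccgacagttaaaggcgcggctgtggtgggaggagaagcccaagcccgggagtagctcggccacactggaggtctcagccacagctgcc

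Rsad2 held 1 match, TTTCATTTTC, starting at −120, and Cmpk2 held 0. The absence says only that these letters are not in that window.

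Usp18, the protease that strips Isg15 from proteins, read 423 in S100a8-treated cells, 587 in S100a9-treated cells and 827 in control cells. It was 1.95-fold lower with S100a8 and 1.41-fold lower with S100a9, in the order seen for Ifit1. Of the 7 genes listed for Isg15 conjugation and removal, 6 were compared, including Usp18. With S100a8, 4 were lower and 1 (Usp18) at least 1.5-fold lower, with a median log2 ratio of −0.18. With S100a9, 5 were lower and 0 at least 1.5-fold, with a median of −0.09. Among all compared genes 46.0% were lower with S100a8, 1.84% by at least 1.5-fold. The matching shares with S100a9 were 46.7% and 0.829%. Under median centring and under quantile normalization 3 of the 6 were lower with S100a8, so the list had no settled direction. Herc6, the Isg15 ligase of mice, was at −0.39 with S100a8 and −0.01 with S100a9. The activating enzyme gene Uba7 (0.07 and 0.04) and the conjugating enzyme gene Ube2l6 (0.15 and −0.005) lay near control.

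The Mx genes were dim. RefSeq lists Mx1 and Mx2 of the C57BL/6J reference as transcribed pseudogenes, and most inbred laboratory strains carry defective Mx alleles. Mx1 read 55.4 in S100a8-treated cells, 44.9 in S100a9-treated cells and 66.2 in control cells, each below the floor, so no fold is given. Mx2 had signals of 96.8, 91.5 and 112, a little above the floor. It was 1.16-fold lower with S100a8 and 1.23-fold lower with S100a9. In this dim range its log2 ratio with S100a8 was −0.21, and −0.39 after centring by brightness.

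Bst2, the tetherin gene, read 1245 in S100a8-treated cells, 1567 in S100a9-treated cells and 1697 in control cells. It was 1.36-fold lower with S100a8 and 1.08-fold lower with S100a9. The S100a8 signal stood apart from the other 2, since the S100a9 signal was 92.3% of the control signal and the S100a8 signal 73.4%. Its window (chr8:71537423-71537722, minus strand) is shown because it held 2 overlapping matches, which run together in capitals from −130 to −115.

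Bst2: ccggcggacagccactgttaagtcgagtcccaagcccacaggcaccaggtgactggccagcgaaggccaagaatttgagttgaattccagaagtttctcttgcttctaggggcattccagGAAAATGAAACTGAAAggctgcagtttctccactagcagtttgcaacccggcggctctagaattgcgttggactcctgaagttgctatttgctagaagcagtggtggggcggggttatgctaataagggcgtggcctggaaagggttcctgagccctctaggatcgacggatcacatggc

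Over the 8 compared members, 8 were lower with S100a8 than in the control, where 46.0% of all compared genes were lower; with median centring or quantile normalization it was 7 of 8, without Cmpk2. At least 1.5-fold lower were 4 (Rsad2, Ifit1, Ifit3 and Usp18), against 1.84% of all compared genes; with the floor at the 65th percentile it was 3, without Ifit3. At least 2-fold lower were 2 (Rsad2 and Ifit1), against 0.273%. The median log2 ratio was −0.71, beside 0.02 over all genes. With Mx1 counted at the floor, as in the version without a filter on dim genes, it was −0.45. Over all 12 probe sets, without floor or filter, 12 were lower and the median was −0.97. This counts Rsad2 3 times and Cmpk2 2 times, and includes Mx1, which was below the floor on every array. The matching share over all probe sets of the array was not computed.

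With S100a9, 7 of the 8 compared members were lower than in the control, against 46.7% of all compared genes, and Ifit2 was the member above it. At least 1.5-fold lower were 2, Rsad2 and Ifit1, against 0.829%. At least 2-fold lower was 1, Rsad2, against 0.137%. The median log2 ratio was −0.37, beside 0.00 over all genes. The S100a8 and S100a9 ratios share the control array, so they are given side by side and their likeness is not counted as a result.

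**Figure D3:**
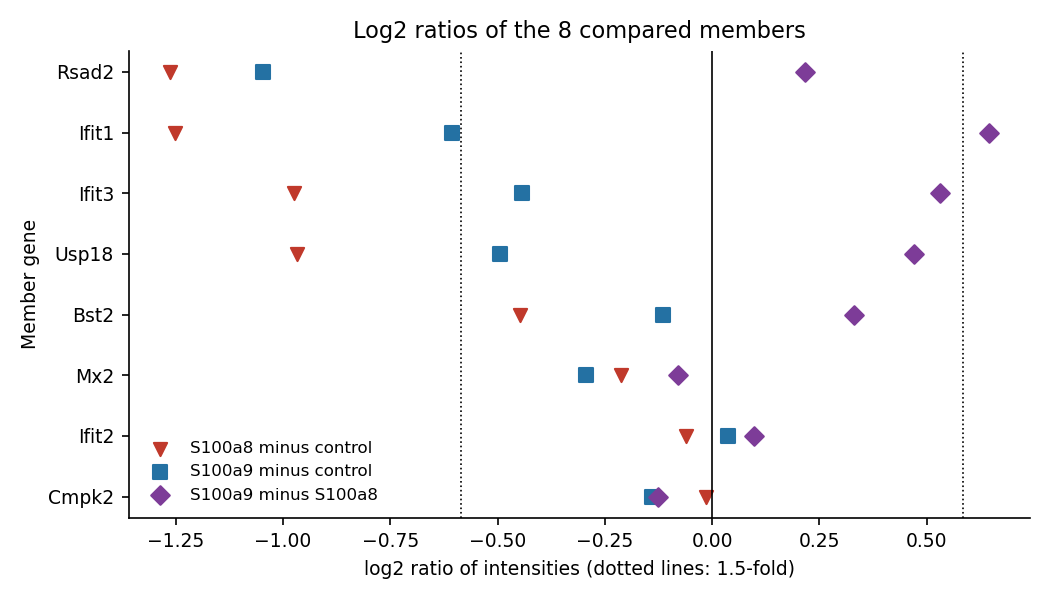
Log2 ratios of the 8 compared members for S100a8 minus control, S100a9 minus control and S100a9 minus S100a8, each point from a pair of single arrays, with dotted lines at 1.5-fold. Rsad2, Ifit1, Ifit3 and Usp18 lie left of the dotted line with S100a8, and only Rsad2 and Ifit1 do with S100a9.

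The proteins were compared directly at the same dose and time, a comparison that does not use the control array. Ifit1 was 1.56-fold higher with S100a9 than with S100a8, the 4th highest ratio of all 11701 compared genes. Ifit3 was 1.44-fold higher (20th), Usp18 1.39-fold (38th) and Bst2 1.26-fold (190th). Rsad2 had a log2 ratio of 0.22 and Ifit2 of 0.10. Mx2 was at −0.08 and Cmpk2 at −0.13; Mx2 turned to 0.10 after centring by brightness and to 0.01 with quantile normalization, and Cmpk2 to 0.02 with the mean of its probe sets. The Ifit3 ratio dropped to 0.02 with the floor at the 65th percentile, which lies above its S100a8 signal.

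In all, 6 of the 8 members were higher with S100a9 than with S100a8, against 52.7% of all compared genes (42.2% after median centring), and 1 at least 1.5-fold, against 0.0940%. The median log2 ratio was 0.27, beside 0.01 over all genes. The order S100a8 lowest, S100a9 between and control highest held for 5 of the 8 members, namely Ifit1, Ifit3, Usp18, Rsad2 and Bst2, and for 22.5% of all compared genes. The members' ratios did not grow in parallel: from S100a9 to S100a8, Ifit1 went from −0.61 to −1.25, whereas Rsad2 went from −1.05 to −1.26.

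**Figure D4:**
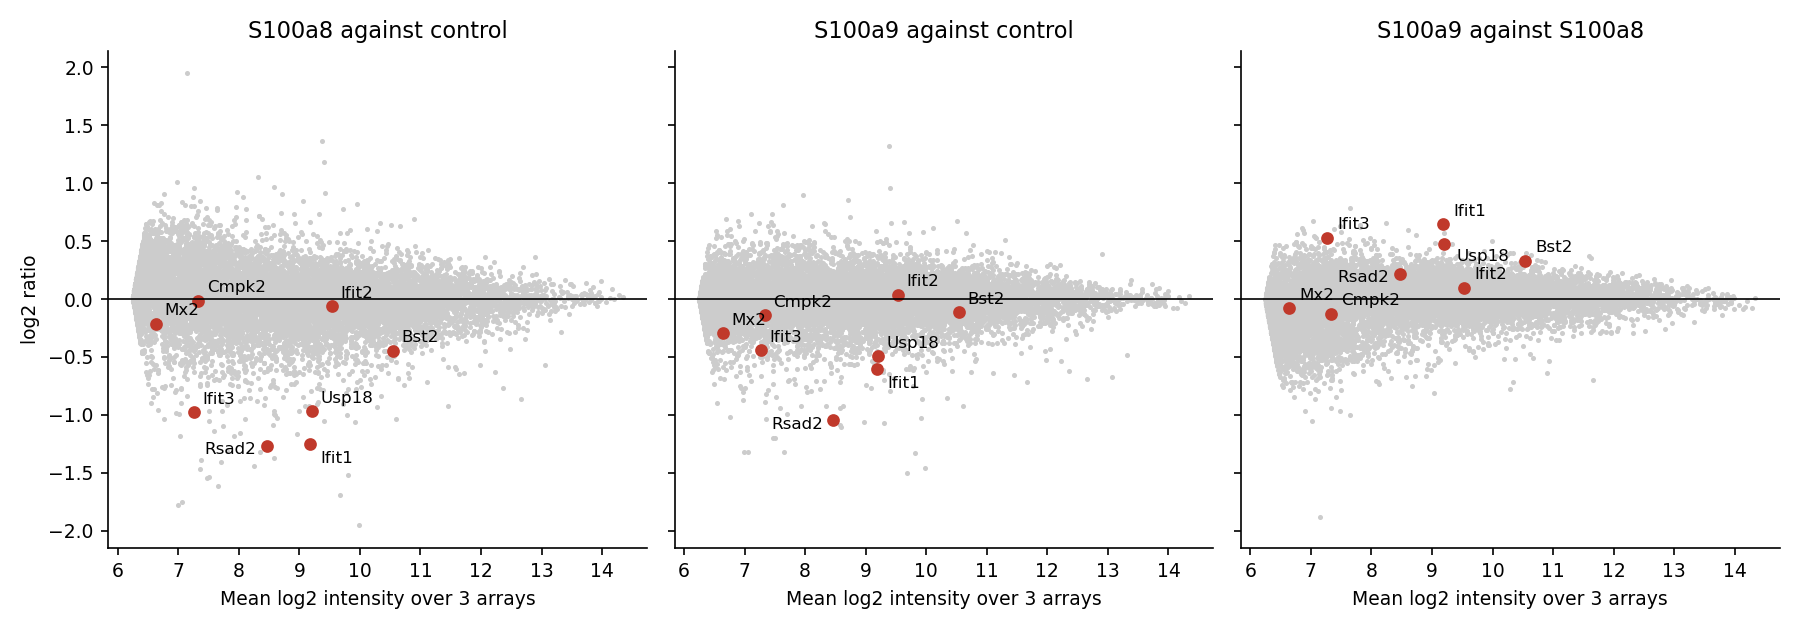
Log2 ratio against mean log2 intensity over 3 arrays for the 11701 compared genes (grey) in each comparison, with the 8 compared members in red. Rsad2, Ifit1, Ifit3 and Usp18 lie at the lower edge of the genes of their brightness with S100a8, and Ifit1, Ifit3, Usp18 and Bst2 at the upper edge for S100a9 against S100a8.

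Signals of the interferons themselves were below the floor. The 5 measured ligand genes, Ifnb1, Ifna1, Ifna2, Ifna4 and Ifna5, lay between 30.07 and 59.9 over the 3 arrays. Of the receptor chains, Ifnar1 had log2 ratios of −0.41 with S100a8 and −0.22 with S100a9, and Ifnar2 of 0.04 and −0.01. Il10rb, a chain of the type III receptor, was at −0.06 and 0.15. Ifnlr1, the other chain of that receptor, was below the floor on every array (65.94, 59.26 and 46.22 in the control).

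For ISGF3 and its signalling, 7 listed genes were compared. With S100a8, 6 were lower and 2 at least 1.5-fold lower, with a median of −0.49; with S100a9, 5 were lower, 0 by 1.5-fold, with a median of −0.25. These counts were the same under the 3 other scalings. The shares of all compared genes were 46.0% lower and 1.84% at least 1.5-fold lower with S100a8, and 46.7% and 0.829% with S100a9. Stat2, which carries the activating domain of ISGF3, was at −0.84 with S100a8 and −0.35 with S100a9. The kinase gene Tyk2 was at −0.71 and −0.55. Jak1 (0.04 and 0.16) and Irf3 (−0.13 and −0.04) differed less. All 7 were higher with S100a9 than with S100a8, against 52.7% of all compared genes, with a median of 0.17.

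The brakes on interferon signalling showed no common direction. With S100a8, 3 of 6 were lower and only Usp18, itself a member, by 1.5-fold, and with S100a9 3 of 6 were lower. These counts lay near the shares of all compared genes lower, 46.0% with S100a8 and 46.7% with S100a9. At least 1.5-fold lower with S100a8 were 1.84% of all compared genes. Ptpn2, a phosphatase acting on JAK and STAT proteins, was at −0.18 and −0.32. Socs3, a feedback inhibitor, was at 0.02 and 0.07, and the phosphatase gene Ptpn6 at 0.31 and 0.11.

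RNA sensors and adaptors were lower in 8 of 9 compared genes with S100a8, 2 of them at least 1.5-fold lower, and the median was −0.41. With S100a9, 5 of 9 were lower, with a median of −0.29. Among all compared genes 46.0% were lower with S100a8, 1.84% by at least 1.5-fold, and 46.7% were lower with S100a9. The cytosolic RNA sensor genes Ifih1 and Ddx58 had −0.72 and −0.67 with S100a8, and −0.29 and −0.39 with S100a9. Their adaptor gene Mavs had −0.07 and 0.04, and Ticam1, the adaptor of Tlr3, 0.33 and 0.17.

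Further antiviral interferon-stimulated genes numbered 36 in the list, of which 31 were compared. With S100a8, 30 were lower, 8 by at least 1.5-fold, and with S100a9 27, 2 by at least 1.5-fold. The matching shares of all compared genes were 46.0% and 1.84% with S100a8, and 46.7% and 0.829% with S100a9. Under the 3 other scalings the numbers lower were 27 or 28 with S100a8 and 26 to 28 with S100a9. Ifih1 is counted both here and among the RNA sensors. The medians were −0.28 and −0.18, against −0.71 and −0.37 for the members. Oasl1 (−1.005 and −0.75) and Oasl2 (−0.999 and −0.41), of the oligoadenylate synthetase-like group, had the lowest S100a8 ratios. Oas3 (0.17 and −0.03) and the RNA editing enzyme gene Adar (−0.0006 and −0.21) had the highest. With S100a9, 25 of the 31 were higher than with S100a8, against 52.7% of all compared genes. The array order S100a8, S100a9, control held for 21, against 22.5% of all compared genes, so that order was not restricted to the members.

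**Figure D5:**
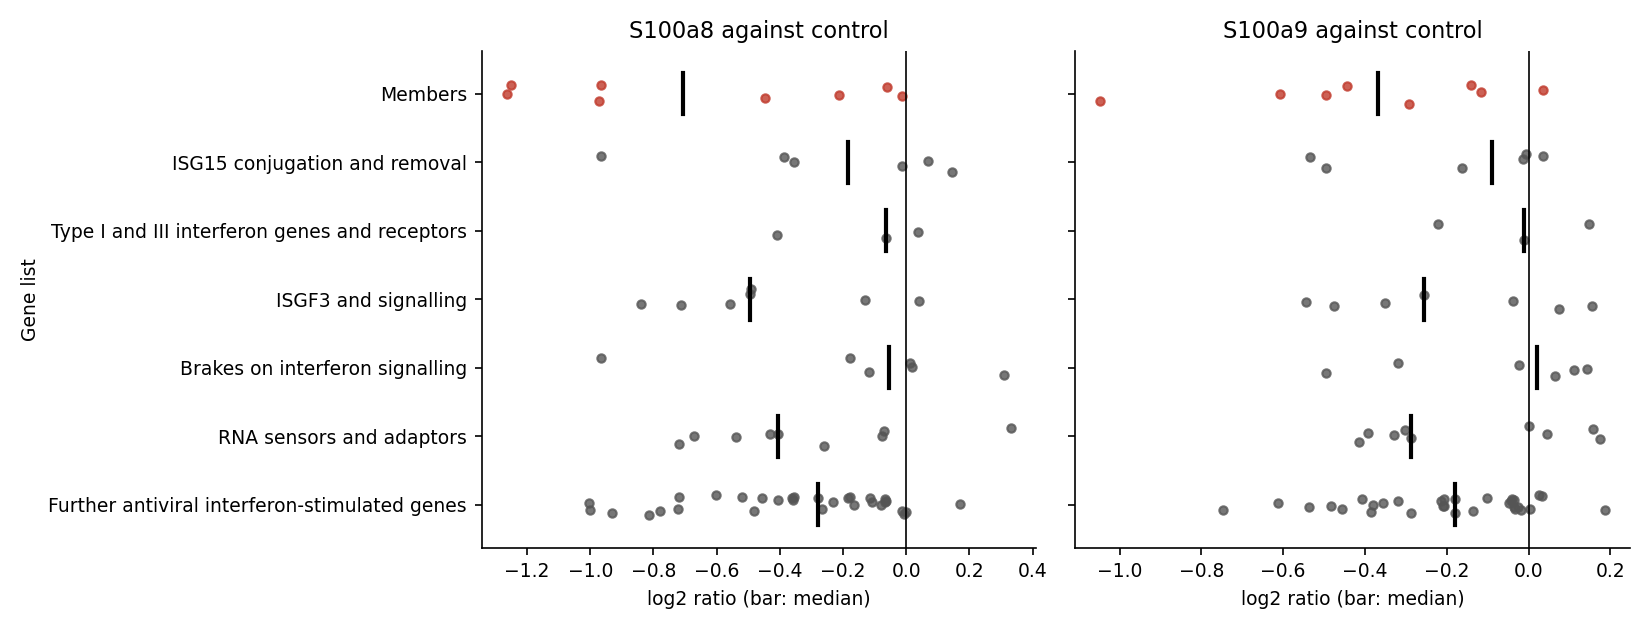
Log2 ratios to control of the compared genes in the members and in 6 lists of the interferon pathway, for S100a8 (left) and S100a9 (right); each point is 1 gene, black bars are medians, and vertical jitter has no meaning. The median of the members is −0.71 with S100a8 and −0.37 with S100a9, and the medians of the receptor and brake lists lie close to 0.

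Genes with a pattern close to the members were sought among 6860 other compared genes with a mean of at least 4 times the floor, by Euclidean distance between pairs of log2 ratios (S100a8 and S100a9 against control, over 3 arrays). Nearest to the members' median pair were Unc5b, Ddx58, Neat1, Ankrd16 and Acss2, at distances from 0.035 to 0.063, and 26 genes lay within 0.1. Nearest to Rsad2 were Ogn, Lif, Atg9b, Tnfaip3 and Fendrr, at distances from 0.0996 to 0.21. With 3 arrays such likeness separates few patterns.

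The labelled cell type was checked by markers. Of 12 colon epithelial markers, 7 lay below the floor on every array, among them Cdh1 (39.7 to 42.6), Krt8 (63.8 to 70.1) and Krt19 (27.1 to 34.8), while Krt18 had 1032 with S100a8 and 1447 in the control. Also above the floor on every array were Krt20 (307 to 326), Cdx2 (101 to 122), Cldn3 (108 to 188) and Epcam (85.45 to 113). Some markers of colon epithelium were thus above the floor in these cells and others were not. Mesenchymal markers summed to 27944 (S100a8), 28782 (S100a9) and 29452 (control), with 2 of 10 below the floor and Vim at 15407 to 16032. Vim and Col1a2 make up most of these sums. Of the 8 compared, 8 were lower than control with S100a8, 3 of them at least 1.5-fold. With S100a9, 6 were lower, 1 of them at least 1.5-fold. The median log2 ratios were −0.21 and −0.11. Among all compared genes 46.0% were lower with S100a8, 1.84% by at least 1.5-fold. The matching shares with S100a9 were 46.7% and 0.829%. The 3 at least 1.5-fold lower with S100a8 were Pdgfrb (−0.92 with S100a8 and −0.76 with S100a9), Dcn (−0.92 and −0.28) and Pdgfra (−0.69 and −0.17). These 3, Col3a1 and the epithelial markers Krt18 and Krt20 had the array order seen for Ifit1, as did 22.5% of all compared genes. Nearer control with S100a8 were Col3a1 (−0.28 and −0.06), Col1a1 (−0.13 and −0.17), Cdh2 (−0.06 and 0.15), Vim (−0.02 and −0.06) and Col1a2 (−0.02 and 0.07). For macrophages and dendritic cells, which also express these antiviral genes, 6 of 13 markers were below the floor on all arrays, including Ptprc at 12.0 to 13.3, and the sums were 2565, 2782 and 2511. Of the 7 compared, 6 were higher than control with S100a8 and 5 with S100a9, with medians of 0.38 and 0.23. Among all compared genes 53.6% were higher with S100a8 and 49.3% with S100a9. Fcer1g (98.86, 74.07 and 72.3) and Flt3 (86.45, 67.06 and 63.18) were above the floor only with S100a8. They passed the filter through that array alone, so their higher S100a8 ratios were fixed in advance. The S100a8 median is the ratio of Fcer1g. Cd68 had 0.63 and 0.53 and Cd53 0.48 and 0.59, whereas Cd14, the brightest of the list, had −0.39 and 0.01. Of 6 plasmacytoid dendritic cell markers, which include Bst2, 3 were below the floor, among them Siglech at 57.9 to 70.5, and the sums were 2848, 3258 and 3695. Most of these sums came from Bst2 (1245, 1567 and 1697), itself a member, and Tcf4 (1364, 1465 and 1771). They are thus not independent of the members. The lymphoid sums over 6 markers were 1112, 921 and 957, and the endothelial sums over 6 were 461, 398 and 385, with 3 below the floor in each. Their part in the members' results was not tested. In such bulk RNA, fewer cells expressing a gene and less RNA per cell cannot be told apart.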

How the data were processed

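Total RNA of 3 CT26.WT cultures was measured on 1 Affymetrix Mouse Genome 430 2.0 array each. The deposited values are linear intensities per probe set, which the authors made with MAS5, as named in the submitters' processing notes; its version and the target of its scaling are not stated there. MAS5 subtracts mismatch signal, which leaves dim values noisy, and scaling to a common level hides changes in total RNA per cell. Of 45101 probe sets, 34945 had 1 gene symbol in the platform annotation, which can be old, and 932 with several were left out; of the first, 34741 matched RefSeq (GRCm38.p6) by Entrez number, with 0 symbols changed.

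Values under 76.15 (50th percentile) were set to it and log2 ratios were taken with Python 3.11.15 and pandas 2.3.3. The number of arrays limits the precision, and no test was run. The scripts were tested on simulated data. Alternatives were 3 scalings, other floors (30th and 65th percentiles, or none with log2(value + 1)), no filter, other probe set rules and a 2-fold size; filtering before the floor and counting all probe sets were added after seeing the data.

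The members and gene lists were chosen with earlier results of these data known. Named genes were the members, the 2 lowest and 2 highest S100a8 ratios of each pathway list, and the 5 genes nearest in pattern; marker genes were named from their lists. A gene of the ISGF3 list is not reported here. Promoter sequences are RefSeq's (GRCm38.p6), found for 7 of the 10 members.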

Additional observations from a re-analysis of the deposited data

Results flagged for a closer look

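Among the members and the pathway genes named in the text, the following had log2 ratios to control of opposite sign under the proteins, and with 1 array per group the difference was not tested. Ifit2 had −0.06 with S100a8 and 0.04 with S100a9, a difference of 0.10. The difference for Ube2l6 was −0.15 (0.15 with S100a8 and −0.005 with S100a9). Il10rb differed by 0.21 (−0.06 and 0.15). For Ifnar2 the difference was −0.050 (0.04 and −0.01). Mavs differed by 0.12 (−0.07 and 0.04). For Oas3 it was −0.19 (0.17 and −0.03). Over all compared genes the SD of the log2 ratio between the protein-treated arrays was 0.19, and of these genes Il10rb and Oas3 had differences at or above it in size. Other genes of the same lists, picked out after their values were seen, had opposite signs and larger differences, among them Irf7 with 0.57 (−0.49 and 0.08), Dhx58 with 0.56 (−0.41 and 0.16) and Zbp1 with 0.54 (−0.54 and 0.0009).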

How the results depend on the processing

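Of 237 recomputed log2 ratios of single members, 233 moved by less than 0.19, the SD over genes of the S100a9 to S100a8 ratio, and 0 turned sign from a main value of at least 1.5-fold. For a bright member with 1 probe set, another filter or probe set rule cannot alter the ratio. Such values are among the 233, so that count does not measure robustness. The 4 that moved were those of Cmpk2 against control with the mean of its probe sets (−0.39 and −0.37) and of Ifit3 with the floor at the 65th percentile (−0.47 for S100a8 against control and 0.02 between the proteins). The members' median for S100a8 came to −0.45 under a 30th-percentile floor or without the filter, both of which add Mx1, −0.47 with the floor at the 65th percentile, which drops Mx2 and lies above the S100a8 signal of Ifit3, whose raised ratio is then the median, and −0.97 over all 12 probe sets. With a 2-fold size, 2 members were lower with S100a8 and 1 with S100a9. Over the 12 probe sets, 7 and 5 were at least 1.5-fold lower, and 11 were lower with S100a9. In these probe set counts Rsad2 stands 3 times and Cmpk2 2 times, and no share over all probe sets was computed. Lower with S100a9 than with S100a8 was 1 member under centring by brightness, quantile normalization, the mean of probe sets and the floor at the 65th percentile, in place of 2. No paired analysis was possible because each group held 1 array.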

Other observations

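One probe set is given by the annotation to both Isg15 and Gm9706, so its signal belongs to neither alone and was left out of the members. It read 703 in S100a8-treated cells, 856 in S100a9-treated cells and 1204 in control cells, in the order seen for Ifit1 and Usp18. It was 1.71-fold lower with S100a8 and 1.41-fold lower with S100a9. The Isg15 promoter window held 3 overlapping matches of the motif between −78 and −57.

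Over compared genes other than the members, those whose promoter window held the motif were described by their ratios. Of 317 genes with 1 match, 17 (5.36%) were at least 1.5-fold lower with S100a8, and of 22 genes with at least 2 matches, 2 (9.09%). The share was 1.65% of 9139 genes without a match. Their median log2 ratios with S100a8 were −0.01, −0.08 and 0.02. With S100a9 the shares were 1.58%, 0% and 0.744%. Most genes with these letters in the window thus had S100a8 signals near control.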
